A study of Mus musculus with 4 samples.

Results

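The genes described here are the metal transporters and metal-binding stores of the mouse genome. They were chosen by symbol: every gene of the Slc11, Slc30, Slc31, Slc39, Slc40 and Slc41 families, together with the metallothionein genes Mt1 and Mt2, the ferritin genes Fth1 and Ftl1 and the transferrin receptor gene Tfrc. The rule found 37 genes among the 55487 measured. No measured value entered the rule, but the genes were chosen with earlier results of these data known. RNA was sequenced from untreated intestinal stem cells sorted from crypts of mice 6 to 12 weeks old that carried the Lgr5-EGFP-IRES-creERT2 allele, which places a green reporter and an inducible Cre under the stem cell gene Lgr5. Small-intestinal stem cells (SISC, 2 libraries) were gated as reporter-positive and CD24-negative. Large-intestinal stem cells (LISC, 2 libraries) were gated as reporter-positive, and no gate on CD24 is mentioned for them. Both groups carry the same allele, and this reporter is known to be silent in a part of the crypts, so that cells of those crypts are not sampled. The labels do not say whether libraries came from separate animals, and p-values therefore measure only the spread between these libraries, which may be technical.

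Cells take up zinc through the Slc39 (ZIP) proteins, which move it into the cytosol, and remove it through the Slc30 (ZnT) proteins, which move it out of the cell or into vesicles and the Golgi. Iron bound to transferrin enters through Tfrc, dietary ferrous iron enters through Slc11a2, ferritin stores it and Slc40a1 exports it. Metallothioneins bind zinc and copper in the cytosol. In the intestine these proteins serve both the needs of the epithelial cell itself and the uptake of metals from the diet, most of which takes place in the proximal small intestine.

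Part of this system is controlled through short sequences. Iron-responsive elements are hairpins in messenger RNA that bind the iron regulatory proteins, which block translation from a 5′ UTR and protect the RNA from decay from a 3′ UTR. They are shown for their position. It separates the iron genes matched below into those known for control of translation and Tfrc, whose RNA level is known to follow iron. The search asked for an unpaired C, 5 paired bases, the loop CAGTGN and at least 3 of 5 further pairs, read on the transcript strand. It matched 95 of 21901 protein-coding genes (0.434%), 9 of them in a 5′ UTR and 36 in a 3′ UTR. Of the 37 genes, 4 matched. The search misses elements of another form, so genes without a match, Slc11a2 among them, may still carry one. The elements (27 bases each, GRCm38, loop in capitals, 5′ to 3′ on the gene's strand) lie at chr19:9982733-9982759 in Fth1, chr7:45459780-45459806 in Ftl1, chr1:45925466-45925492 in Slc40a1, and chr16:32631220-32631246, chr16:32631599-32631625, chr16:32631664-32631690 and chr16:32631711-32631737 in Tfrc. Fth1 and Tfrc are on the plus strand, Ftl1 and Slc40a1 on the minus strand.
Fth1 5′ UTR: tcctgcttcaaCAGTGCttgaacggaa
Ftl1 5′ UTR: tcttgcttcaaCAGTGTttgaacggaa
Slc40a1 5′ UTR: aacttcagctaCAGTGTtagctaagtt
Tfrc 3′ UTR, first: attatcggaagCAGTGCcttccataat
Tfrc 3′ UTR, second: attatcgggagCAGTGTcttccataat
Tfrc 3′ UTR, next: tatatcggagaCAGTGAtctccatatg
Tfrc 3′ UTR, last: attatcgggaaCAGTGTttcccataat

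Metal response elements are the promoter motifs read by the zinc sensor MTF1. They are shown for Mt1 and Mt2, neighbours on chromosome 8, of which Mt2 passed the test between the groups and Mt1 did not. The letters searched were TGCACNC and TGCGCNC on both strands. In the RefSeq promoter table (GRCm38.p6, 250 bases before to 50 after each start), 25.7% of 32851 promoters held at least 1 match and 1.97% at least 3. Of the 37 genes, 31 had a promoter in that table, 38 promoters in all, and 19 of these promoters, of 18 genes, held a match. At least 3 matches were found in Mt2 (4), Mt1 (3), Slc30a10 (3, some of them overlapping on opposite strands) and Slc30a4 (3). Slc30a2, Slc30a1 and the first promoter listed for Tfrc held 2. The RefSeq starts that set the promoter windows lie at chr8:94179089 for Mt1 and chr8:94172618 for Mt2. The GENCODE vM21 starts of Mt1 and Mt2, at other positions, lie 128 and 89 bases before a TATAA box, so the sites were also read up to that box. That gave 5 sites in Mt1 and 7 in Mt2. They are printed on the plus strand, the strand of both genes, with the match in capitals, and begin with 4 flanking bases. The Mt1 sites lie between chr8:94179062-94179076 and chr8:94179183-94179197, and the Mt2 sites between chr8:94172391-94172405 and chr8:94172725-94172739.
Mt1, 137 bases before the box: gctgTGCACACtggc
Mt1, 112 bases before: gctcTGCACTCcgcc
Mt1, 94 bases before: aaagTGCGCTCggct
Mt1, 30 bases before: tgctGGGTGCAaacc
Mt1, 16 bases before: ccttTGCGCCCggac
Mt2, 351 bases before: cctcTGCACCCggcc
Mt2, 256 bases before: ccttTGCGCTCagct
Mt2, 178 bases before: gggcGTGTGCAggct
Mt2, 124 bases before: ggtcGTGCGCAggcc
Mt2, 70 bases before: gggcGTGTGCAggcg
Mt2, 51 bases before: gggcGCGTGCAtggt
Mt2, 17 bases before: ctttTGCGCTCgacc
A match of these letters is a description of the sequence, and binding was not measured here.

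Expected counts totalled 12795405 to 27227681 per library. The replicate 1 libraries of both groups held 24.1% and 28.5% nuclear rRNA and the replicate 2 libraries 0.0917% and 0.0997%, so that differences are also given within a replicate number. Summed stem cell markers stood at 2234 and 2580 CPM (each count scaled by TMM to its library's total) in SISC and at 1657 and 1357 CPM in LISC. Slc12a2 was the largest part of the sum in every library, at 1169 and 1471 CPM in SISC and at 960 and 922 CPM in LISC. Of these 7 markers, 3 were higher in both SISC libraries and 0 in both LISC libraries, and none passed the test used below. Lgr5 stood at 114 and 173 CPM in SISC and at 147 and 89.7 CPM in LISC. Markers of lymphocytes, mesenchyme and endothelium each summed to at most 5.74 CPM. The macrophage and dendritic list summed to 491 and 626 CPM in SISC and to 93.3 and 135 CPM in LISC. Cd74 alone made up most of that sum, at 483 and 620 CPM in SISC and at 81.2 and 98.4 CPM in LISC. On this list Cd74 passed in favour of SISC and C1qa in favour of LISC. Csf1r reached at most 0.0927 CPM and Lyz2 at most 0.364 CPM, and Adgre1 and C1qb had 0 counts in all 4 libraries. Paneth cell markers summed to 8758 and 1348 CPM in SISC replicates 1 and 2 and to 54.9 and 29.0 CPM in LISC. Goblet and deep crypt secretory markers summed to 2140 and 467 CPM in SISC and to 3942 and 8450 CPM in LISC.

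Of the 37 genes, 32 had enough counts to be tested. The phagocyte iron transporter Slc11a1, the pancreatic beta cell zinc transporter Slc30a8 and Slc39a12 had 0 counts in all 4 libraries, where 3 counts would be 0.0937 to 0.278 CPM. Slc30a3 (1 to 10 counts) and Slc41a3 (1 to 10 counts) fell below the filter. In edgeR's quasi-likelihood test, 2 of the 32 genes passed an adjusted p of 0.05, Mt2 in favour of LISC and Slc30a2 in favour of SISC, where 2.2% of all 14165 genes tested passed (1.45% in favour of LISC and 0.741% in favour of SISC). At an unadjusted p under 0.05 there were 5 (13.4% of all genes), adding Slc39a8, Slc30a7 and Slc39a11, each with the higher value in LISC.

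Most of the remaining genes differed little, and most of those differences pointed to LISC without passing the test. The log2 difference, LISC over SISC, was positive for 26 of the 32 (81.2%, against 48.0% of all genes) and negative for 6, with a median of 0.35 against −0.021 over all genes. In CPM, both LISC libraries lay above both SISC libraries for 18 genes (56.2%, against 21.9% of all genes). Both lay below for 5 (15.6%, against 18.4%), and the groups overlapped for 9. Over all genes, 40.3% had groups that did not overlap in CPM. In TPM, which is explained below, some of the 18 overlapped, Mt1 and Ftl1 among them. Within both replicate numbers the difference in CPM was positive for 23 genes (71.9%, against 32.7% of all genes) and negative for 6 (18.8%, against 33.6%). Absolute differences of at least 1 were found for 6 genes (18.8%, against 17.5% of all genes). The median standard error was 0.29, so that a difference of the median size is little more than 1 standard error of a single gene.

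**Figure D1:**
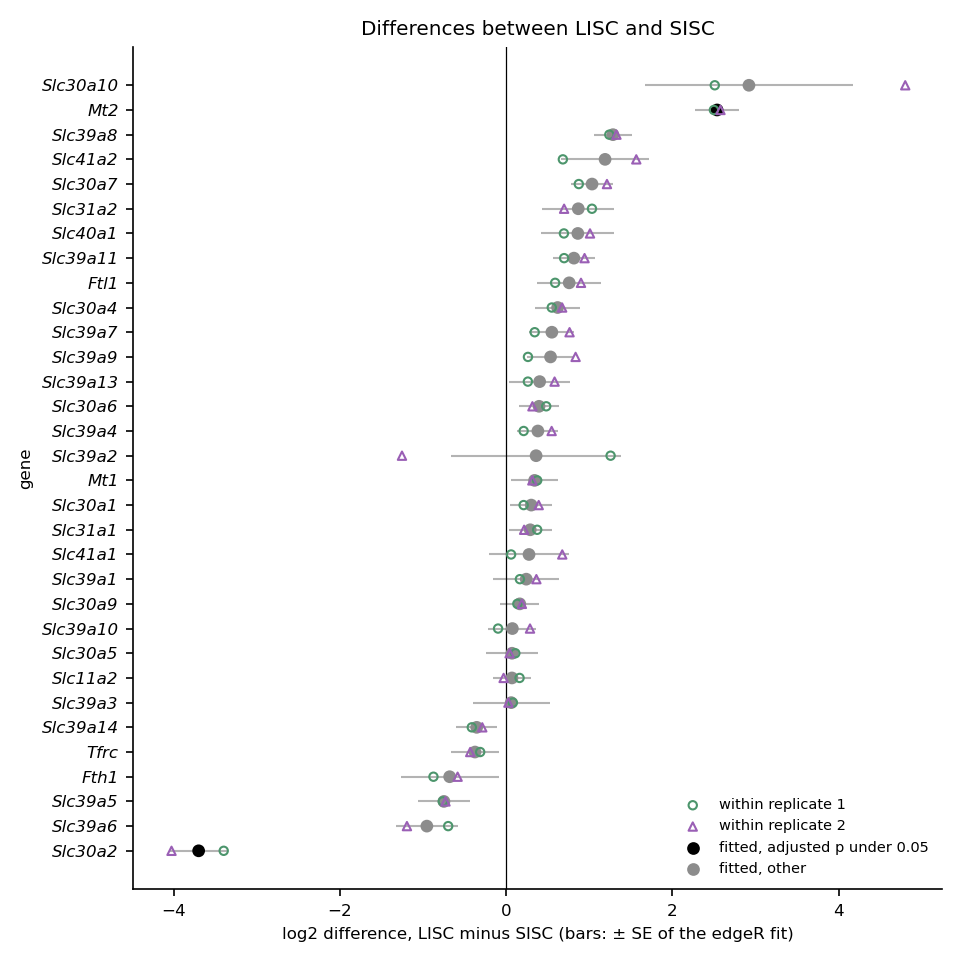
Log2 difference, LISC over SISC, with its standard error (filled points and bars, edgeR, 2 libraries per group) for the 32 genes tested, with the difference within each replicate number as open symbols. Slc30a2 at −3.70 and Mt2 at 2.54 are the genes that passed the test, and 26 of the 32 values are above 0.

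Among the metal stores, Mt2 was the gene that rose in LISC. Mt2 (ENSMUSG00000031762, chr8:94172664-94173568) had 25.0 and 23.1 CPM in SISC and reached 141 and 138 CPM in LISC. The spread within a group was small beside the gap between them, with means of 24.0 ± 1.35 and 139 ± 2.41 CPM (SD, n = 2). The log2 difference was 2.54 ± 0.27 (SE; 5.80-fold), with an adjusted p of 0.0267 in edgeR's quasi-likelihood test, and it was 2.50 within replicate 1 and 2.58 within replicate 2. The call was lost without SISC replicate 1 (adjusted p 0.0576 in edgeR, log2 2.59) and without SISC replicate 2 (adjusted p 0.0860 in edgeR, log2 2.46), and also in limma on TPM, where the log2 difference was 2.28 with an adjusted p of 0.560. Tuft cell markers moved with Mt2: all 5 were higher in both LISC libraries, summing to 20.4 and 4.50 CPM in SISC and to 76.4 and 135 CPM in LISC (median log2 difference 3.10), none passed the adjusted threshold in edgeR (adjusted p 0.130 to 0.659), and their part in the result was not tested. Goblet and deep crypt secretory markers, summed above, were also higher in LISC as a sum, and their part was not tested either. In these bulk samples, fewer cells of a type and less RNA per cell cannot be told apart.

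Mt1 (ENSMUSG00000031765, chr8:94179082-94180327), which encodes the closest relative of Mt2, stood at 110 and 131 CPM in SISC and at 142 and 163 CPM in LISC. The groups did not overlap, but the gap was small: the log2 difference was 0.34 ± 0.29, with an adjusted p of 0.827 in edgeR. Per transcript length, Mt1 stood at 304 and 414 TPM (abundance scaled within a library by transcript length) in SISC and at 274 and 557 TPM in LISC, and Mt2 at 84.3 and 82.0 TPM in SISC and at 317 and 527 TPM in LISC. Mt1 was therefore the more abundant of the pair in SISC, and the pair stood near parity in LISC. The ratio of Mt2 to Mt1 in TPM was 0.278 and 0.198 in SISC and 1.16 and 0.947 in LISC. The ratio is free of the scaling between libraries. It was chosen after the values were seen and is a description, since 2 libraries against 2 cannot give a two-sided permutation p below 0.333.

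Mt3, the metallothionein best known from brain, was on the list of other metal genes. It had 3 and 1 counts in SISC and 21 and 220 counts in LISC (0.218, 0.0312, 1.95 and 7.56 CPM). Its log2 difference was 5.46 ± 1.25 with an adjusted p of 0.128 in edgeR, and its LISC value came mostly from replicate 2. The RNA of Mtf1, the zinc sensor that drives the metallothionein promoters, stood at 19.3 and 17.0 CPM in SISC and at 15.8 and 15.9 CPM in LISC, for a log2 difference of −0.20 ± 0.24 with an adjusted p of 0.936 in edgeR.

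**Figure D2:**
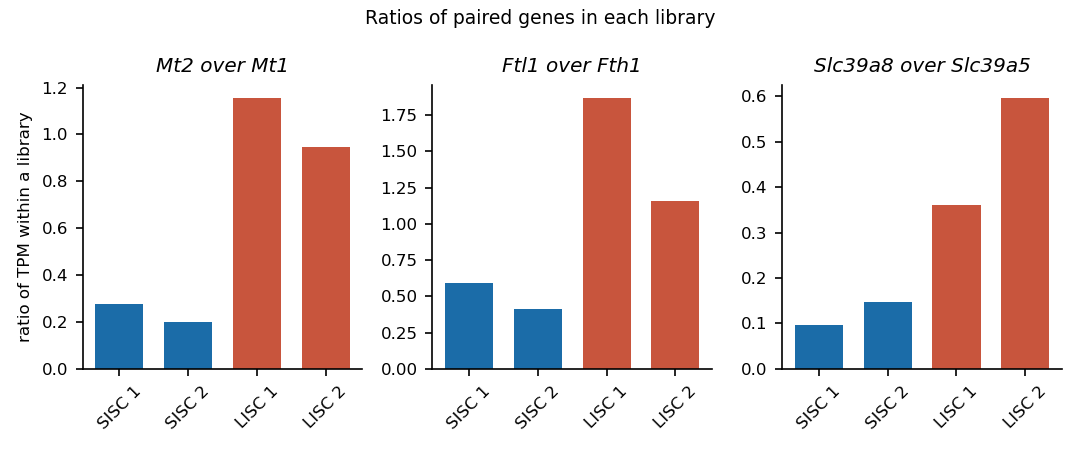
Ratio of TPM values within each library for Mt2 over Mt1, Ftl1 over Fth1 and Slc39a8 over Slc39a5, 1 bar per library, axes from 0. Each ratio is higher in both LISC libraries than in both SISC libraries, as for Mt2 over Mt1 with 0.278 and 0.198 against 1.16 and 0.947.

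The ferritin genes were the most abundant of the 37 in every library. Fth1, the heavy subunit that oxidises iron, stood at 719 and 1324 CPM in SISC and at 392 and 882 CPM in LISC. These groups overlapped, and replicate 1 was lower than replicate 2 in both. The replicate 1 libraries were the ones rich in rRNA, whose part in this was not tested. The log2 difference was −0.68 ± 0.59 (adjusted p 0.840 in edgeR), and it was −0.88 and −0.58 within replicates 1 and 2. Leaving out SISC replicate 2 or LISC replicate 1 gave −0.21, leaving out SISC replicate 1 gave −1.06, and leaving out LISC replicate 2 gave −1.37. Ftl1, the light subunit that supports mineralisation of the core, stood at 542 and 580 CPM in SISC and at 816 and 1082 CPM in LISC. The Ftl1 groups did not overlap, and the log2 difference was 0.76 ± 0.39 (adjusted p 0.558 in edgeR).

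Per transcript length, Fth1 stood at 954 and 2108 TPM in SISC and at 371 and 1515 TPM in LISC, and Ftl1 at 568 and 876 TPM in SISC and at 693 and 1755 TPM in LISC. The order of the subunits thus differed between the groups, with Fth1 above Ftl1 in both SISC libraries and below it in both LISC libraries. The ratio of Ftl1 to Fth1 was 0.595 and 0.415 in SISC and 1.87 and 1.16 in LISC, a description chosen after the values were seen. By TPM, Fth1 ranked between 99 and 194 among all 55487 genes, and Ftl1 between 107 and 179. Ferritin genes have close processed copies. The authors' counting left a posterior SD of at most 0.188% on the counts of Fth1, Ftl1, Mt1 and Mt2, and the copy Ftl1-ps1 received 182 to 434 counts.

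Genes of iron entry and exit did not pass the test. Tfrc, which takes up transferrin-bound iron and carries the 3′ UTR elements printed above, stood at 239 and 269 CPM in SISC and at 192 and 199 CPM in LISC. Both LISC libraries lay below both SISC libraries, with a log2 difference of −0.38 ± 0.29 and an adjusted p of 0.803 in edgeR. Slc11a2, the ferrous iron importer DMT1, stood at 27.4 and 26.2 CPM in SISC and at 30.6 and 25.6 CPM in LISC. The Slc11a2 groups overlapped, and the log2 difference was 0.069 ± 0.23, an error that leaves room for a modest difference in either direction. Slc40a1, the iron exporter ferroportin, was low in every library, at 2.69 and 2.72 CPM in SISC and at 4.36 and 5.47 CPM in LISC (log2 difference 0.86 ± 0.44, adjusted p 0.558 in edgeR). Per transcript length Slc40a1 stood at 0.60 to 2.36 TPM and Slc11a2 at 7.85 to 13.7 TPM.

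**Figure D3:**
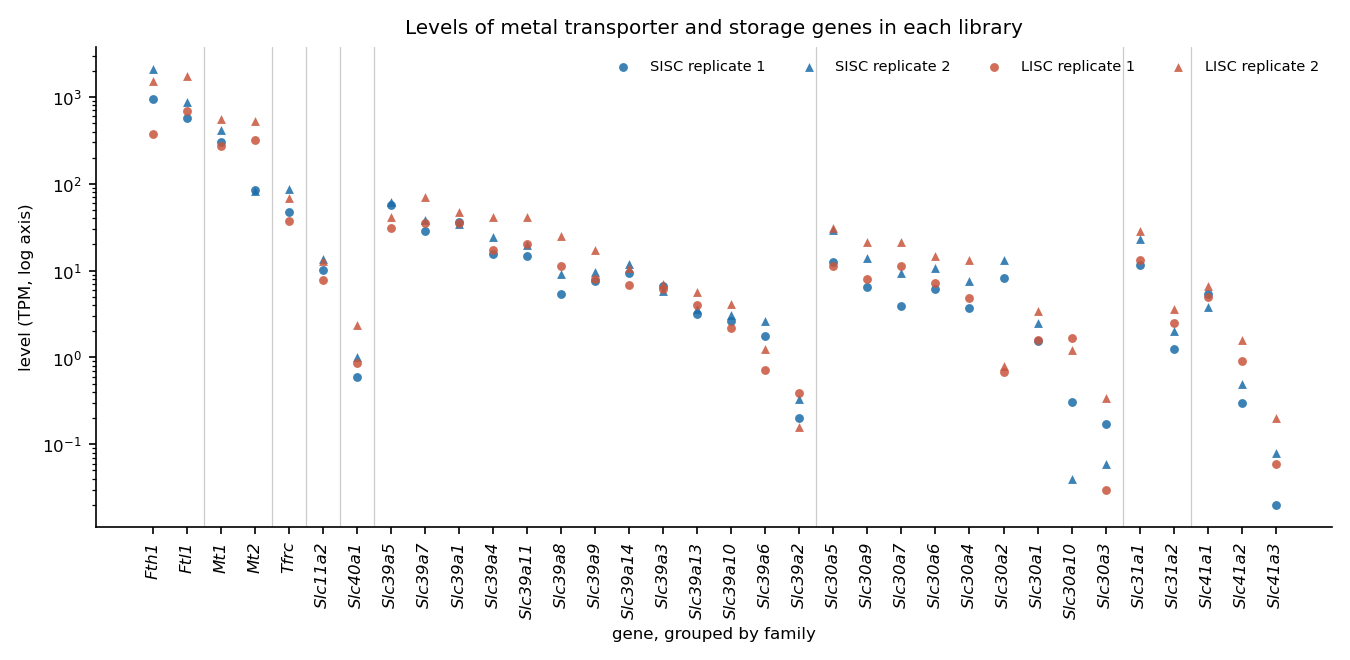
Level of each gene in the 4 libraries, in TPM on a log axis, 1 point per library. Genes with 0 counts in all libraries are left out. The ferritin genes Fth1 and Ftl1 stand highest in every library, at 371 to 2108 TPM, and Slc30a2 is the exporter with its SISC points (8.25 and 13.2 TPM) far above its LISC points (0.68 and 0.80 TPM).

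The zinc importers of the Slc39 family summed to 189 and 225 TPM in SISC and to 179 and 315 TPM in LISC. None of the 13 tested passed the adjusted threshold in edgeR, where 2.2% of all genes passed. An unadjusted p under 0.05 was found for 2, Slc39a8 and Slc39a11, where 13.4% of all genes had one. Slc39a8 passed with DESeq2, which called 8.35% of all genes, and in edgeR with no filter on low counts, which called 5.86%. The make-up of the family nevertheless differed in its leading genes. Slc39a5, a zinc importer of the basolateral membrane, held the first place in TPM in both SISC libraries (30.1% and 27.7% of the family) and the third place in both LISC libraries (17.3% and 13.3%). In LISC the first place was held by Slc39a1 in replicate 1 (35.5 TPM) and by Slc39a7 in replicate 2 (71.0 TPM).

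Slc39a8, the importer ZIP8 that carries manganese and zinc, stood at 24.1 and 24.8 CPM in SISC and at 56.9 and 62.2 CPM in LISC. Both LISC values were far above both SISC values, with little spread within a group. The log2 difference was 1.28 ± 0.23 (2.44-fold) with an adjusted p of 0.0793 in edgeR, and it was 1.24 and 1.33 within replicates 1 and 2. DESeq2 gave an adjusted p of 0.00154 and a log2 difference of 1.26. Slc39a14, the family member closest to it in the metals carried, stood at 50.1 and 41.6 CPM in SISC and at 37.6 and 34.1 CPM in LISC (log2 difference −0.36 ± 0.24, adjusted p 0.740 in edgeR). Slc39a8 and Slc39a14 thus stood in opposite order in the groups: the ratio of Slc39a8 to Slc39a14 in TPM was 0.572 and 0.781 in SISC and 1.63 and 2.32 in LISC, again a description.

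Slc39a5 stood at 115 and 84.7 CPM in SISC and at 67.7 and 51.0 CPM in LISC. The groups did not overlap, and the log2 difference of −0.75 ± 0.31 had an adjusted p of 0.422 in edgeR. It was nearly the same within both replicate numbers, −0.76 and −0.73. Slc39a11, a zinc importer also found on internal membranes, stood at 48.6 and 40.8 CPM in SISC and at 78.8 and 78.3 CPM in LISC. Its log2 difference was 0.81 ± 0.25, with an adjusted p of 0.242 in edgeR.

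Slc39a4, the apical importer of dietary zinc whose loss causes the zinc deficiency acrodermatitis enteropathica, stood at 48.2 and 44.1 CPM in SISC and at 55.8 and 64.4 CPM in LISC. The Slc39a4 groups did not overlap, and the log2 difference was 0.38 ± 0.25 (adjusted p 0.714 in edgeR). Slc39a7, which releases zinc from the endoplasmic reticulum, stood at 82.6 and 69.0 CPM in SISC and at 105 and 117 CPM in LISC, for a log2 difference of 0.55 ± 0.27 (adjusted p 0.535 in edgeR). Slc39a1, a widely expressed importer of the plasma membrane, stood at 109 and 63.4 CPM in SISC and at 122 and 81.5 CPM in LISC. For Slc39a1 the spread between replicate numbers was larger than the gap between groups (log2 difference 0.24 ± 0.40). Markers of absorptive enterocytes, the cells that take up dietary metals, summed to 327 and 262 CPM in SISC and to 101 and 241 CPM in LISC. Anpep was the largest part of that sum in both SISC libraries (188 and 93.8 CPM). Fabp2 was the largest part in both LISC libraries (51.2 and 131 CPM). The groups overlapped for Fabp2. Slc26a3 was higher in both LISC libraries, at 28.6 and 68.5 CPM against 17.4 and 16.1 CPM in SISC. The other markers, Anpep among them, were higher in both SISC libraries, as described beside Slc30a2.

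Among the zinc exporters, Slc30a2 was higher in SISC and passed the test. Slc30a2 (ENSMUSG00000028836, chr4:134343181-134354484) encodes ZnT2, which loads zinc into vesicles and is known from Paneth cell granules and the mammary gland. It stood at 31.3 and 30.3 CPM in SISC and at 2.97 and 1.86 CPM in LISC, from 430, 969, 32 and 54 counts. The SISC libraries were nearly equal and far above both LISC libraries, 30.8 ± 0.720 against 2.41 ± 0.784 CPM (SD, n = 2). The log2 difference was −3.70 ± 0.35 (13.0-fold higher in SISC) with an adjusted p of 0.0218 in edgeR's quasi-likelihood test. It was −3.40 within replicate 1 and −4.03 within replicate 2. Without SISC replicate 1 the log2 difference was −3.69, and without SISC replicate 2 it was −3.74. Slc30a2 passed in all 12 alternative analyses, with log2 differences between −4.05 and −2.72.

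Markers of Paneth cells moved with Slc30a2 between the groups. Each of the 8 markers was higher in both SISC libraries than in both LISC libraries, with a median log2 difference of −7.08, none passed the adjusted threshold in edgeR (adjusted p 0.0730 to 0.244), and 1 of them, Defa17, had 0 counts in LISC replicate 1. Paneth cells are known to carry CD24, and SISC were gated as CD24-negative, while no such gate is mentioned for LISC. Within SISC the summed Paneth markers differed 6.50-fold between the libraries, at 8758 and 1348 CPM. Slc30a2 stood at 31.3 and 30.3 CPM in the same libraries. Both SISC libraries held far more Paneth marker RNA than either LISC library. The part of Paneth cells in the difference of Slc30a2 was not tested. Most absorptive enterocyte markers also moved with Slc30a2: 7 of 9 were higher in both SISC libraries than in both LISC libraries. Slc26a3 was higher in both LISC libraries. The median log2 difference over the list was −2.83. Apoa4, with 0 counts in both LISC libraries, and Sis passed in favour of SISC (adjusted p 0.0264 and 0.0431 in edgeR), and their part in the result was not tested. Of the 8 goblet and deep crypt secretory markers, 5 were higher in both LISC libraries than in both SISC libraries, and none passed (adjusted p 0.113 to 0.971 in edgeR).

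**Figure D4:**
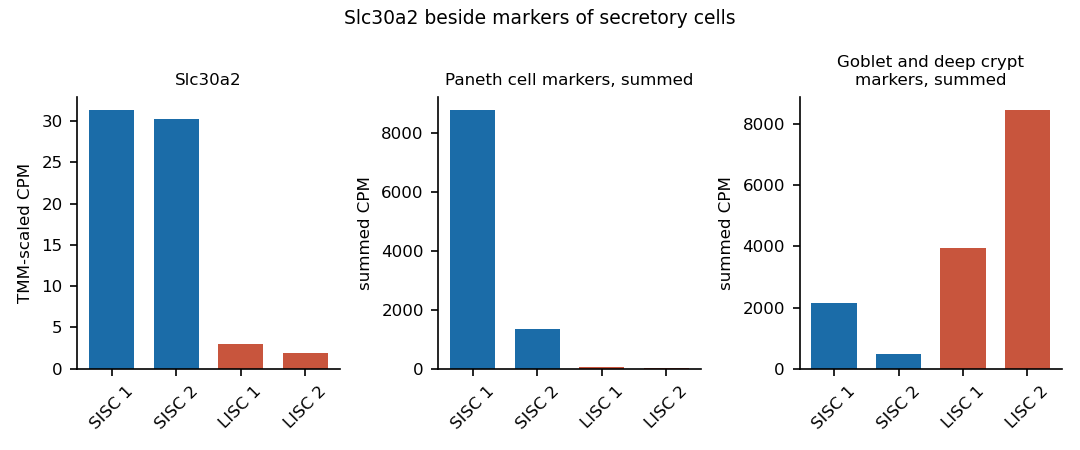
TMM-scaled CPM of Slc30a2 (left), of 8 Paneth cell markers summed (middle) and of 8 goblet and deep crypt secretory markers summed (right), 1 bar per library, axes from 0. Slc30a2 stands at 31.3 and 30.3 CPM in the SISC libraries, whose Paneth sums are 8758 and 1348 CPM.

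The other exporters did not pass the test, and their values leaned to LISC. Of the 8 Slc30 genes tested, 7 had a positive log2 difference (87.5%, against 48.0% of all genes). For 5 of them the groups did not overlap in CPM (62.5%, against 21.9% of all genes). Slc30a5, which works with Slc30a6 to load zinc into the secretory pathway, was the most abundant member by TPM in all 4 libraries. It stood at 40.5 and 57.3 CPM in SISC and at 43.6 and 58.9 CPM in LISC, so that the groups overlapped (log2 difference 0.069 ± 0.31). Slc30a7, a zinc transporter of the Golgi, stood at 31.2 and 24.3 CPM in SISC and at 57.2 and 56.3 CPM in LISC. Both LISC values of Slc30a7 were well above both SISC values, with a log2 difference of 1.03 ± 0.26 and an adjusted p of 0.152 in edgeR.

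The make-up of the Slc30 family differed with these genes. Slc30a2 made up 19.1% and 15.2% of the family's TPM in SISC and 1.46% and 0.748% in LISC. It held the second and the third place in the SISC libraries and the eighth in both LISC libraries. Slc30a7 made up 9.04% and 10.8% in SISC and 24.1% and 19.9% in LISC. The gene length the authors' counting used for Slc30a7 was 5775 bases in SISC replicate 1 and 3252 to 3544 bases in the other libraries, which lowers its TPM in the first of these but not its CPM.

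Slc30a10 (ENSMUSG00000026614, chr1:185454848-185468762), which exports manganese and is known from liver and intestine, had 34 and 6 counts in SISC and 152 in each LISC library. That is 2.47 and 0.187 CPM in SISC, against 14.1 and 5.22 CPM in LISC. Both LISC values were above both SISC values, but the SISC libraries also differed widely from each other. The log2 difference was 2.92 ± 1.25 with an adjusted p of 0.436 in edgeR, and it was 2.51 and 4.80 within replicates 1 and 2. The value moved with the library left out. The log2 difference was 5.63 without SISC replicate 1 and 1.94 without SISC replicate 2. It was 2.02 without LISC replicate 1 and 3.48 without LISC replicate 2. With all 4 libraries and no filter on low counts Slc30a10 passed (adjusted p 4.4e-05 in edgeR), where 5.86% of all genes passed.

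**Figure D5:**
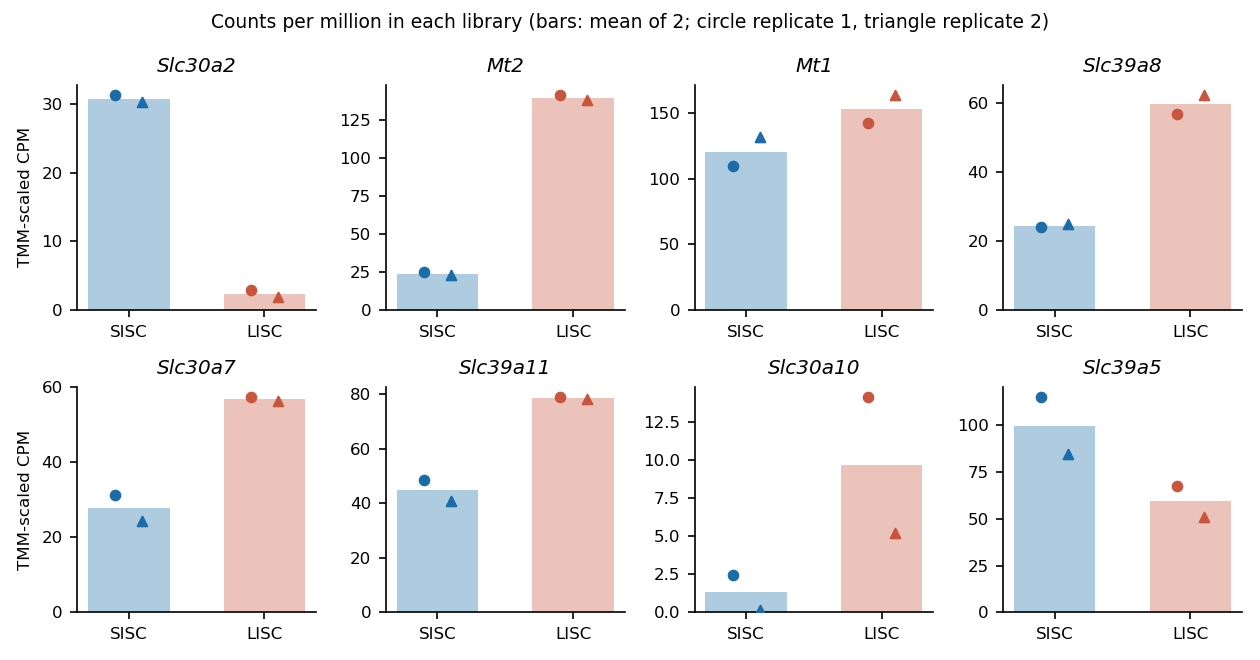
TMM-scaled CPM of 8 of the genes, 1 point per library (circle replicate 1, triangle replicate 2), with bars at the mean of 2 libraries and axes from 0. Slc30a2 stands at 31.3 and 30.3 CPM in SISC against 2.97 and 1.86 CPM in LISC, and Mt2 at 25.0 and 23.1 CPM against 141 and 138 CPM.

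Copper and magnesium transporters did not pass the test. Slc31a1, the copper importer CTR1, stood at 57.5 and 68.7 CPM in SISC and at 74.4 and 79.8 CPM in LISC. The log2 difference of Slc31a1 was 0.29 ± 0.26, with an adjusted p of 0.854 in edgeR. It made up 84.2% to 91.8% of the TPM of the pair, the remainder being Slc31a2. Slc41a2, a magnesium transporter, stood at 1.96 and 1.91 CPM in SISC and at 3.15 and 5.64 CPM in LISC, for a log2 difference of 1.19 ± 0.53 (adjusted p 0.465 in edgeR). The remaining 12 genes tested had log2 differences between −0.95 (Slc39a6) and 0.87 (Slc31a2), and the lowest adjusted p among them in edgeR was 0.380.

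A wider list of 57 genes of metal handling gives the setting: iron regulators, haem and mitochondrial iron genes, copper pumps and chaperones, other metallothioneins and magnesium channels. Of these, 45 could be tested and 0 passed in edgeR's quasi-likelihood test, where 2.2% of all genes passed. An unadjusted p under 0.05 was found for 7, where 13.4% of all genes had one, 2 with the higher value in LISC and 5 in SISC. DESeq2 called 5 of the 45, 2 in favour of LISC and 3 in favour of SISC, where it called 8.35% of all genes. The median log2 difference was 0.078. The liver hormone genes Hamp and Hamp2 were among the 12 genes below the filter. In CPM, both LISC libraries lay above both SISC libraries for 14 genes (31.1%, against 21.9% of all genes) and below for 11 (24.4%, against 18.4%).

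Heph, the ferroxidase that works with ferroportin at the basolateral membrane, stood at 31.8 and 35.2 CPM in SISC and at 40.7 and 57.3 CPM in LISC (log2 difference 0.55 ± 0.28, adjusted p 0.555 in edgeR). Steap3, the ferrireductase of the transferrin cycle, had a log2 difference of 0.81 and an adjusted p of 0.383 in edgeR, and the magnesium transporter gene Cnnm4 one of 0.75 with an adjusted p of 0.671. The mitochondrial iron importer Slc25a28 stood at 66.8 and 59.0 CPM in SISC and at 42.4 and 34.7 CPM in LISC, with a log2 difference of −0.71 and an adjusted p of 0.334 in edgeR.

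Some further genes of that list were picked out after their values were seen. Cybrd1, the duodenal ferric reductase that supplies Slc11a2, had 60 and 30 counts in SISC and 0 in both LISC libraries. It stood at 4.37 and 0.937 CPM in SISC, and the mean of these was 13.9-fold above the mean LISC floor of 3 counts per library. The adjusted p of Cybrd1 was 0.140 in edgeR. The copper pump gene Atp7b stood at 8.37 and 7.06 CPM in SISC and at 1.11 and 0.172 CPM in LISC, for a log2 difference of −3.71 ± 0.95 with an adjusted p of 0.160 in edgeR. Trf, which encodes transferrin, stood at 4.73 and 6.50 CPM in SISC and at 1.67 and 1.34 CPM in LISC (log2 difference −1.91 ± 0.49, adjusted p 0.161 in edgeR). Epas1, the hypoxia factor HIF-2 alpha that drives iron uptake genes in the duodenum, stood at 9.46 and 6.68 CPM in SISC and at 33.7 and 22.0 CPM in LISC. Its log2 difference was 1.79 ± 0.35 with an adjusted p of 0.0937 in edgeR. The groups did not overlap for any of these 4 genes, and none of them passed the adjusted threshold in edgeR.

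Some of the 37 genes overlap others, and whether reads were counted by strand is not given. Exons of Mt2 overlap the antisense gene Gm45774, which had 0 to 15 counts, and those of Slc30a10 overlap Gm2061 on the opposite strand, which had 0 to 18 counts. Slc39a13 and Slc39a9 overlap the highly read genes Psmc3 and Erh on the opposite strand, and Slc39a2 overlaps Mettl17 on its own strand, so that values of Slc39a13, Slc39a9 and Slc39a2 are uncertain. Slc39a7 shares sequence with Gm20427, and its counts had the largest posterior SD of the 37 genes, at most 1.23%.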

How the data were processed

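Polyadenylated RNA of 4 libraries (SISC and LISC, 2 each, groups and replicate numbers from the sample titles) was prepared with a strand-marking (directional) kit, per the labels' protocols. Per the submitters' processing notes, the tools were STAR 2.7.2b and RSEM 1.2.31 and the build was GRCm38 (mm10), while the annotation and strand setting are not given in the sources. The authors deposited RSEM expected counts per gene, where a read matching several genes is shared out between them (values were not whole, within 0.001, for 7.25% of genes), with the posterior SD of the counts and gene lengths in bases. The deposited TPM values are per transcript length and served to compare levels between genes.

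Expected counts were rounded to whole numbers. Gene identifiers were matched to GENCODE vM21 (55227 of 55487 with a symbol), which also gives coordinates, 1-based. LISC was compared with SISC with edgeR 4.0.16 under R 4.3.3 (quasi-likelihood test, TMM, filterByExpr with a minimum count of 10, group as the only term), with Benjamini-Hochberg adjustment over 14165 genes and a threshold of 0.05. Standard errors are the log2 difference divided by the square root of F. Alternatives used DESeq2 1.42.0, limma 3.58.1 on log2(TPM + 1) and log2(TPM + 0.1), RLE factors, other filters, rRNA genes removed, a replicate block, and each library left out. The fits were also run on simulated counts. These varied less than the libraries here, whose common biological coefficient of variation was 43.4%, and held no difference between replicate numbers. That run therefore does not show how the fits perform on these data. Floors of 3 counts cover counting error only.

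The genes and lists were chosen with earlier results of these data known. Values in every library are given for genes called and for genes with a mean TPM of at least 20 in either group. They are also given for genes whose groups do not overlap in CPM with an absolute log2 difference of at least 1. From the wider list, the rule named the 6 genes with the largest difference at a mean TPM of at least 10, 1 of which is not reported here. Mtf1, Slc11a2, Slc40a1, Slc39a14, the overlapping genes, the ratios and the genes said to be picked out later fall outside the rule and were chosen after their values were seen. Promoters are from RefSeq (GRCm38.p6), and iron-responsive elements were read from GENCODE vM21 transcripts.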

Additional observations from a re-analysis of the deposited data

How the results depend on the processing

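Over the 32 genes tested and 12 alternatives, 353 of 383 values kept their direction and their side of the threshold, 9 came to pass it, 4 ceased to and 17 changed sign. The 4 were those of Mt2 named in the report. The number of the 37 genes called in favour of LISC, 1 in edgeR, was 2 with DESeq2, 3 with no filter on low counts, 0 with limma on TPM at either pseudocount, and 0 to 1 with a library left out. Without SISC replicate 2 none was called, and without SISC replicate 1 the gene called was Slc30a10. The number in favour of SISC was 1 in each of these. With the replicate block, the numbers were 5 in favour of LISC and 2 in favour of SISC, adding Slc39a8, Slc30a7, Slc39a11 and Slc30a10, and Slc39a5. That fit called 10.9% of all genes. The labels do not say that a replicate number marks a shared animal or day, there are only 2 pairs, and deviations from the group means correlated at 0.648 across 14165 genes, which are not independent.

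Of the wider list, 0 in favour of LISC became 2 with DESeq2, 2 with no filter, 1 and 1 with limma at pseudocounts of 1 and 0.1, 4 with the block and 0 to 1 with a library left out. The 0 in favour of SISC became 3, 2, 2, 1, 4 and 0 to 1 in the same order, and the 1 in each range arose without LISC replicate 1. Over all genes, 206 in favour of LISC became 785 with DESeq2, 942 with no filter, 78 with at least 1 CPM in 3 libraries, 353 and 372 with limma, 1015 with the block and 166 to 338 with a library left out. The 105 in favour of SISC became 398, 465, 39, 172 and 179, 524 and 79 to 149. The cause was not tested.

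The sign changes concern 7 genes with small differences, none called. With limma at pseudocounts of 1 and 0.1, Slc11a2 gave −0.22 and −0.24 and Slc30a5 −0.033 and −0.038. Slc39a2 gave −0.0090 with limma at 0.1 and −0.018 with the block. With a library left out, the log2 difference ran from −0.063 to 0.20 for Slc11a2, −0.17 to 0.32 for Slc30a5, −0.11 to 0.67 for Slc39a1, −0.19 to 0.35 for Slc39a10, −1.16 to 1.17 for Slc39a2, −0.47 to 0.55 for Slc39a3 and −0.23 to 0.998 for Slc41a1. Slc39a2 has no value under the stricter filter. Of low genes such as Slc39a2 and Slc30a10, depth limits what can be told. A fit without a library assumes that the lone library of its group varies like the other group.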

Other observations

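The gene lengths in the deposited files, which follow the mix of transcripts, differed between libraries for some of these genes. For Slc41a2 the length was 2356 bases in LISC replicate 1 and 4742 bases in the other libraries, and for Slc39a6 it was 2889 bases in SISC replicate 1 and 3882 bases in the others. Mt2 had the same length of 511 bases in all 4 libraries.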
